A study of Homo sapiens with 12 samples.

Results

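The SLC39 genes, also called ZIP genes, encode the importers that carry zinc into the cytosol from outside the cell or out of organelles. The genes described here are the members SLC39A1, SLC39A3, SLC39A4, SLC39A6, SLC39A7, SLC39A8, SLC39A9, SLC39A10, SLC39A13 and SLC39A14, chosen by symbol. They are 10 of the 62914 entries of a gene table from THP-1 cells, a human monocytic leukemia line. The 10 members passed the filter on low counts and were tested with 16628 genes in all.

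RNA-seq libraries were made from 4 groups with 3 libraries each, and every group was the same cell line. Chlorquinaldol, a halogenated 8-hydroxyquinoline antimicrobial, was given at 20 μM to 1 group and at 50 μM to another, for 8 h each. A further group received 1 μg/mL 3'-3'-cGAMP, a cyclic dinucleotide that activates the innate immune adaptor STING, for 8 h. The fourth group, called untreated below, is labelled as an untreated control, and no vehicle or time is given for it. No label ties the libraries to separate cultures, so p-values measure the spread between these libraries, which may be technical.

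Summed counts per library ran from 19011578 to 19222607 at 50 μM, from 17620929 to 18926562 at 20 μM, from 18914542 to 18979948 with cGAMP and from 18910085 to 19023005 in untreated cells. Of 8 monocytic marker genes, 7 reached 1 FPKM in every library, and the other, MPO, was at 0.11 to 1.38 FPKM. Their summed level was 655 to 744 FPKM at 50 μM, 628 to 683 FPKM at 20 μM, 855 to 902 FPKM with cGAMP and 824 to 829 FPKM in untreated cells. LYZ, which encodes lysozyme, was at 158 to 216 FPKM in the chlorquinaldol libraries and 391 to 414 FPKM in untreated ones. Other markers lay the other way: CD14 was at 22.7 to 40.6 FPKM in the chlorquinaldol libraries and 15.4 to 19.5 FPKM in untreated ones, ITGAM at 46.8 to 64.3 against 15.5 to 18.9 FPKM, and CSF1R at 54.1 to 92.3 against 34.7 to 37.5 FPKM. The part of these gaps in the results below was not tested. CD3E, CD2 and MS4A1 of the lymphocyte markers were at 0.07 FPKM or less. CD3D was at 0.56 FPKM or less and CD79A at 0.42 FPKM or less, whereas NKG7 was at 14.4 to 24.3 FPKM. Summed markers of epithelium, fibroblasts and erythroid cells stayed at or under 0.76 FPKM. Values are scaled to the library, so fewer cells, or less RNA per cell, cannot be seen.

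Zinc importers work against the SLC30 (ZnT) exporters, which move zinc out of the cytosol, and metallothioneins, which bind it. The transcription factor MTF1 senses free zinc and switches on SLC30A1 and metallothionein genes through metal response elements. SLC39 proteins sit in different membranes: some, such as SLC39A1, SLC39A4, SLC39A10 and SLC39A14, take up metal at the cell surface, and others, such as SLC39A7 in the endoplasmic reticulum, release it from stores. 8-Hydroxyquinolines bind zinc, copper and iron.

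In short, 3 importer transcripts fell by more than 2-fold in counts at both doses of chlorquinaldol: SLC39A10, SLC39A3 and SLC39A14. Of all tested genes, 15% at 20 μM and 27.2% at 50 μM changed by 2-fold or more in either direction, at an adjusted p below 0.05 in edgeR. In FPKM the SLC39A10 means at 20 μM and in untreated cells lay 1.90-fold apart. SLC39A1, the most abundant importer, rose at both doses, and SLC39A13 rose at 50 μM. In untreated cells the level per transcript length, in FPKM (fragments scaled to transcript length and library depth), was highest for SLC39A1 with 69.7 ± 1.86 FPKM (SD, n = 3). SLC39A7 followed with a mean of 54.6 FPKM, then SLC39A4 with 35.7 FPKM, SLC39A3 with 27.1 FPKM, SLC39A9 with 23.1 FPKM and SLC39A6 with 18.2 FPKM. SLC39A14 at 14.6 FPKM and SLC39A8 at 14.0 FPKM overlapped between libraries and did not differ beyond their spread. SLC39A13 came next with 9.18 FPKM, and SLC39A10 was lowest with 4.91 ± 0.66 FPKM (SD, n = 3). SLC39A4 is best known as the importer of dietary zinc in the intestine, and here it followed directly after SLC39A7. That place rests on a short implied transcript length, a measure explained with SLC39A10, of 418 bases on average in untreated cells. In CPM its level, 15.0 ± 1.29 (SD, n = 3), was close to that of SLC39A13, 14.5 ± 0.49.

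At 50 μM the order changed. SLC39A1 stood at 111 ± 5.13 FPKM (SD, n = 3), and SLC39A7 was again second at 43.8 FPKM. The ranges of SLC39A4 (mean 21.9 FPKM), SLC39A9 (16.6 FPKM), SLC39A8 (15.6 FPKM) and SLC39A13 (14.3 FPKM) overlapped each with the next. SLC39A6 followed at 11.9 FPKM. SLC39A3 at 6.45 FPKM and SLC39A14 at 6.20 FPKM overlapped, and SLC39A10 was last at 1.80 FPKM. SLC39A3 thus held the fourth place in untreated cells and the eighth at 50 μM.

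**Figure D1:**
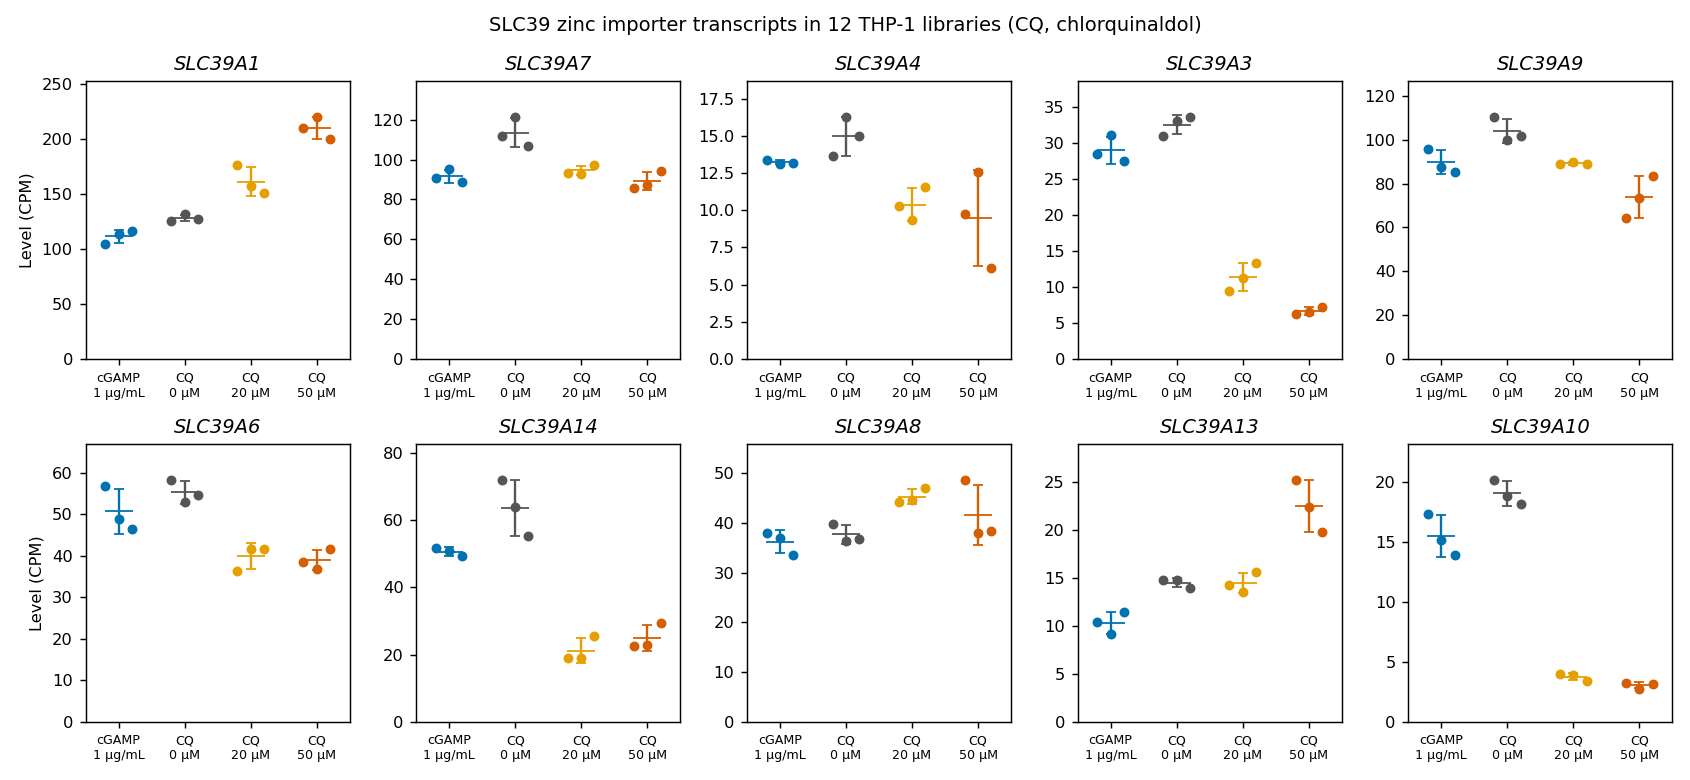
CPM (counts scaled to library depth, linear axis from 0) of each of the 10 SLC39 members in every library, by treatment (CQ, chlorquinaldol, with 0 μM the untreated cells); points are libraries, horizontal bars group means and whiskers the SD (n = 3). SLC39A3, SLC39A10 and SLC39A14 lie lower in every chlorquinaldol library than in any untreated one, while SLC39A1 lies higher.

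Against untreated cells, 9 of the 10 members passed the test at 20 μM, 2 higher and 7 lower. Among all tested genes 55.1% passed, 27.1% higher and 28% lower. At 50 μM the 10 members passed, 3 higher and 7 lower, where 66.9% of tested genes passed, 32.2% higher and 34.7% lower. The all-gene split at 50 μM depends on the scaling. With TMM 5352 genes were higher and 5771 lower, with upper-quartile factors 5192 and 5985, and with limma on log2(FPKM + 1) 4068 and 6222. The median log2 change of the members was -0.36 at 20 μM and -0.36 at 50 μM, beside -0.0016 and -0.034 over all tested genes. The library ranges of 9 members at 20 μM and of 9 at 50 μM did not overlap those of untreated cells in CPM, which held for 61.3% and 70.8% of tested genes. Passing at 2-fold or more were 3 members at each dose, where 15% of tested genes did so at 20 μM and 27.2% at 50 μM. Passing means an adjusted p below 0.05 in edgeR's quasi-likelihood test, with Benjamini-Hochberg adjustment over all tested genes, and all adjusted p-values below come from that test.

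SLC39A10 (ENSG00000196950, chr2:195575977-195737702, plus strand, GRCh38) encodes a plasma membrane importer that pairs with SLC39A6. It had the largest called fall of the members in the edgeR fit of counts. Its level was 20.2, 18.8 and 18.2 CPM at 0 μM, 3.97, 3.87 and 3.44 CPM at 20 μM, and 3.20, 2.76 and 3.16 CPM at 50 μM. In CPM the ranges of the 3 doses did not overlap, but 50 against 20 μM did not pass in edgeR (adjusted p = 0.371). These levels rest on 53 to 61 counts at 50 μM, 65 to 75 at 20 μM and 345 to 381 in untreated cells. SLC39A10 fell 5.04-fold at 20 μM against untreated cells (log2 change -2.33 ± 0.12 SE, adjusted p = 1.45e-10). At 50 μM it fell 5.68-fold (-2.50 ± 0.12, adjusted p = 1.61e-11). Of all tested genes, 0.674% had a lower log2 change at 20 μM and 1.69% at 50 μM in this fit of counts. At 50 μM that share was 2.55% for SLC39A3 and 9.36% for SLC39A14. For SLC39A1 and SLC39A13, which rose, it was 82.5% and 80.8%.

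The size of the SLC39A10 change depended on the unit. In FPKM it averaged 2.58 ± 0.24 FPKM at 20 μM and 4.91 ± 0.66 FPKM in untreated cells (SD, n = 3 each), a 1.90-fold gap, where the CPM means lay 5.07-fold apart. At 50 μM it averaged 1.80 ± 0.28 FPKM (SD, n = 3), 2.72-fold under the untreated mean, where the CPM means lay 6.27-fold apart. FPKM divides the count by an effective transcript length, which RSEM averages over a gene's isoforms by their estimated share. Count and FPKM of 1 library together give that length back. For SLC39A10 it was 3566, 4001 and 4150 bases at 0 μM, 1436, 1440 and 1487 bases at 20 μM, and 1772, 1326 and 2063 bases at 50 μM. The libraries of both doses thus lay well under the untreated ones.

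The mean implied length of SLC39A10 was lower by 62.8% at 20 μM and by 56.0% at 50 μM against untreated cells. The exact two-sided permutation test of 3 against 3 libraries gave p = 0.1 for each, the smallest it can give. Of 11588 genes with at least 1 FPKM in every library, 0 had a lower difference at 20 μM and 4 at 50 μM. For 90% of those genes the difference lay between -11.6% and 12.6% at 20 μM, and between -16.0% and 12.3% at 50 μM. With cGAMP the length was 4323, 4224 and 3261 bases, with a mean of 3936 bases against 3906 in untreated cells. GENCODE 29 lists 9 transcripts of SLC39A10, of which 3 are 4478, 5322 and 5432 bases long, 1 is a retained intron of 2009 bases and 5 are 337 to 593 bases long. The estimated isoform mix behind these lengths rests on the counts given above, which are few at both doses, and tables of isoforms were not used here. Among the other 9 members, the largest gap in implied length against untreated cells was that of SLC39A3 at 50 μM, -13.9%, with no overlap between the groups (exact permutation p = 0.1). That gap lay within the range of 90% of genes, and 781 of the 11588 genes had a lower difference. At 50 μM the groups did not overlap for 28.2% of those genes, and also not for SLC39A1, SLC39A6, SLC39A7 and SLC39A14.

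**Figure D2:**
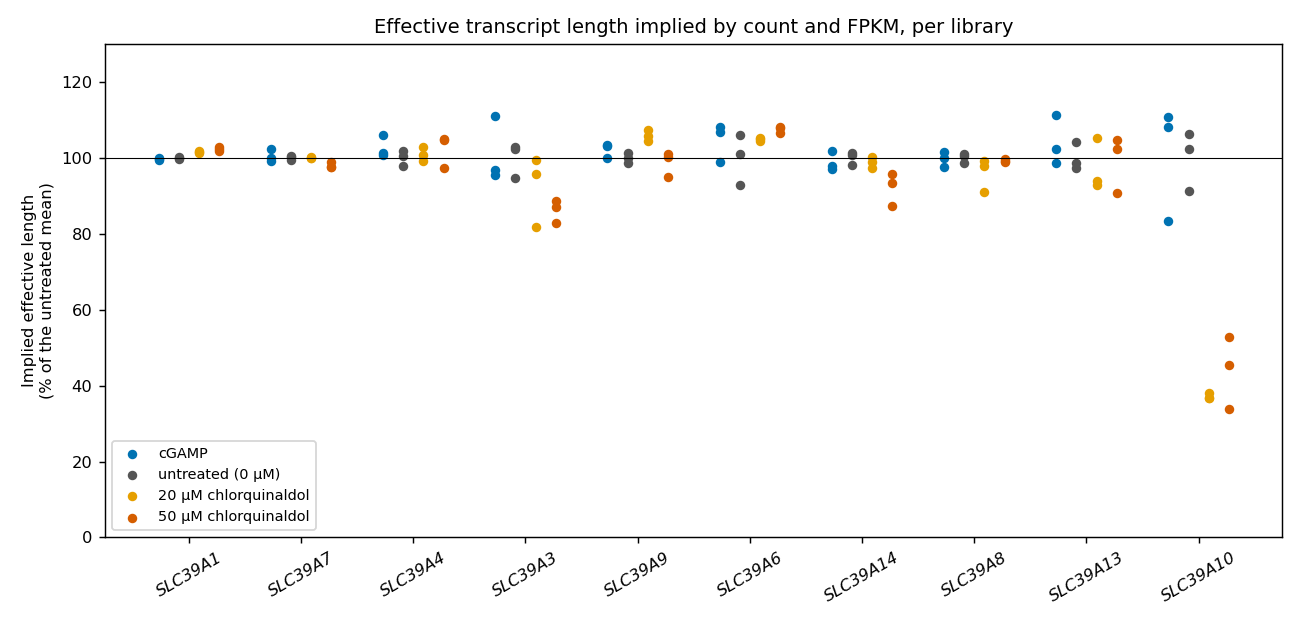
Effective transcript length implied by count and FPKM for the 10 SLC39 members, as a percentage of the member's untreated mean; each point is 1 library, coloured by treatment. The chlorquinaldol points of SLC39A10, 1326 to 2063 bases, stand far below its other points, 3261 to 4323 bases, while the points of the other members stay near the line.

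SLC39A3 (ENSG00000141873, chr19:2732204-2740152, minus strand) encodes a zinc importer of the same subfamily as SLC39A1. Its level was 31.0, 33.0 and 33.6 CPM at 0 μM, 9.42, 11.3 and 13.3 CPM at 20 μM, and 6.24, 6.57 and 7.22 CPM at 50 μM, so it stepped down with each dose without overlap. SLC39A3 fell 2.85-fold at 20 μM against untreated cells (log2 change -1.51 ± 0.11 SE, adjusted p = 5.99e-09). At 50 μM it fell 4.42-fold (-2.14 ± 0.11, adjusted p = 4.34e-11). In FPKM the SLC39A3 means lay 2.63-fold under the untreated mean at 20 μM and 4.20-fold at 50 μM. Both gaps were larger than those of SLC39A10 in FPKM, 1.90-fold and 2.72-fold. A readthrough gene on the same strand, AC006538.2 in GENCODE 29, covers most of SLC39A3 and averaged 22.1 counts per library.

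SLC39A14 (ENSG00000104635, chr8:22367249-22434129, plus strand) encodes a surface importer of zinc, manganese and iron not bound to transferrin. Its level was 71.9, 63.8 and 55.2 CPM at 0 μM, 19.0, 19.0 and 25.6 CPM at 20 μM, and 22.4, 22.8 and 29.5 CPM at 50 μM. Both doses lay well under the untreated range, but they overlapped each other. SLC39A14 fell 2.99-fold at 20 μM against untreated cells (log2 change -1.58 ± 0.12 SE, adjusted p = 7.87e-09) and 2.32-fold at 50 μM (-1.21 ± 0.11, adjusted p = 4.87e-08). In FPKM its means lay 2.97-fold under the untreated mean at 20 μM, the largest gap of the members there, and 2.35-fold at 50 μM.

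SLC39A1 (ENSG00000143570, chr1:153959099-153968184, minus strand) encodes a widely expressed surface importer. Its level was 126, 132 and 127 CPM at 0 μM, 176, 157 and 151 CPM at 20 μM, and 209.9, 220.0 and 199.8 CPM at 50 μM. It thus stepped up with each dose, without overlap between doses. The rise at 20 μM against untreated cells was 1.27-fold (log2 change 0.34 ± 0.09 SE, adjusted p = 0.00261). At 50 μM it was 1.80-fold (0.85 ± 0.09, adjusted p = 1.11e-07). The SLC39A1 means at 50 μM and in untreated cells lay less far apart, 1.64-fold in CPM and 1.60-fold in FPKM. CREB3L4, which overlaps SLC39A1 by 651 bases on the opposite strand, had 240 counts per library on average and changed the other way at 50 μM (log2 change -0.60, adjusted p = 0.00013).

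SLC39A13 (ENSG00000165915, chr11:47407132-47416501, plus strand) encodes an importer of intracellular vesicles and the Golgi, mutated in a form of Ehlers-Danlos syndrome. Its level was 14.8, 14.8 and 14.0 CPM at 0 μM, 14.2, 13.6 and 15.6 CPM at 20 μM, and 25.3, 22.5 and 19.8 CPM at 50 μM. The 20 μM and untreated ranges overlapped, and the 50 μM libraries lay above both. At 50 μM SLC39A13 rose 1.71-fold against untreated cells (log2 change 0.78 ± 0.11 SE, adjusted p = 1.05e-05). Its means at 50 μM and in untreated cells lay 1.55-fold apart in CPM and 1.56-fold in FPKM. At 20 μM its log2 change was 0.00 with a 95% interval of -0.24 to 0.25 (adjusted p = 0.983). An antisense gene, SLC39A13-AS1, shares 2059 bases with it and fell at both doses (log2 change -0.92 at 20 μM and -0.63 at 50 μM). The strand setting of the counting is not known, so reads in the bases that genes on opposite strands share cannot be told apart.

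Regulatory sequence is shown for SLC39A10 and SLC39A3, which had the largest called falls at 50 μM in the edgeR fit of counts. It is also shown for SLC39A1, which had the largest called rise in that fit. They are shown because the core of the metal response element bound by MTF1 occurs in each of these windows. The first windows of SLC39A10 and SLC39A1 held no such core and are not printed. The windows are RefSeq's, on GRCh38.p14, with 250 bases before and 50 after an annotated start, printed 5' to 3' on the gene's strand. Capitals mark a match to TGCACNC or TGCGCNC, which were searched on both strands and do not overlap each other. The SLC39A10 window is the second of its windows, chr2:195656976-195657275 (plus strand), the SLC39A3 window is chr19:2740027-2740326 (minus strand), and the SLC39A1 window is the second of its windows, chr1:153963488-153963787 (minus strand).
SLC39A10: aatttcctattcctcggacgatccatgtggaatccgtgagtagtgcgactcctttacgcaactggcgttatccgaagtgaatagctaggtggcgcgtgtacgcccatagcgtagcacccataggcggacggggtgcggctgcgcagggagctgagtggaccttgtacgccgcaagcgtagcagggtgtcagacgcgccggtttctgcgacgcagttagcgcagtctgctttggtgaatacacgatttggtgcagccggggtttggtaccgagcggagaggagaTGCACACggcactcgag
SLC39A3: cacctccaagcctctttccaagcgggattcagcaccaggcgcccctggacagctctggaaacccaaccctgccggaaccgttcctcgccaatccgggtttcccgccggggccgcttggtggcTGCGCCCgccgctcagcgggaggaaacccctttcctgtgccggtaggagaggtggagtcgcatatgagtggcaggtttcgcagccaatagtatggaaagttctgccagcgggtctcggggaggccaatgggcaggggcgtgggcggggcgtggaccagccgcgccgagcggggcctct
SLC39A1: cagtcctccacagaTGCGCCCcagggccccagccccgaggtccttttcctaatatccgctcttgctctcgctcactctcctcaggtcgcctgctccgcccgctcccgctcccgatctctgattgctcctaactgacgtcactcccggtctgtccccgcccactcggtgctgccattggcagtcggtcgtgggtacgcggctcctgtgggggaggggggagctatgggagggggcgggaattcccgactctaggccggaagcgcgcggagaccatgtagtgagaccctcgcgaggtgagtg

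The match in SLC39A10 lies inside the first transcribed bases, at positions 34 to 40 counted from 1 at the start. The matches of SLC39A3 and SLC39A1 begin at -128 and -236, where -1 is the base before the start. RefSeq windows were found for 8 of the 10 members, not for SLC39A4 and SLC39A14. Of 14 windows in all, 6, in 6 genes, held a match: the 3 printed and 1 each of SLC39A6, SLC39A8 and SLC39A13. Genes with several windows had more chances of a match. Of 35116 RefSeq windows of this length, 29.55% held either motif, 12.07% TGCACNC and 19.97% TGCGCNC. Genes with a match thus include members that rose and members that fell, and a match is a description of the letters only.

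In the edgeR fit the log2 change of the other 5 members was between -0.52 and 0.29 at both doses. Between group means at 50 μM and in untreated cells, SLC39A4 was 1.58-fold lower in CPM and 1.63-fold lower in FPKM, and SLC39A6 was 1.42-fold lower in CPM and 1.53-fold lower in FPKM. SLC39A6, the LIV-1 protein, is a surface importer that pairs with SLC39A10. It had 58.3, 53.0 and 54.7 CPM at 0 μM, 36.3, 41.7 and 41.6 CPM at 20 μM, and 38.5, 36.8 and 41.6 CPM at 50 μM. Each dose lay under the untreated range and overlapped the other dose. SLC39A6 fell 1.38-fold at 20 μM (log2 change -0.46 ± 0.09 SE, adjusted p = 0.000194) and 1.29-fold at 50 μM (-0.37 ± 0.09, adjusted p = 0.00112), against untreated cells. SLC39A9, an importer of the Golgi network, had 99.7 to 110 CPM at 0 μM, 88.8 to 89.7 CPM at 20 μM and 64.3 to 83.4 CPM at 50 μM. It fell 1.28-fold at 50 μM (log2 change -0.36 ± 0.08 SE, adjusted p = 0.000632), where its means lay 1.41-fold apart in CPM and 1.39-fold in FPKM. At 20 μM its log2 change was -0.21 ± 0.08 (adjusted p = 0.0286), and this call was lost without untreated replicate 1 or 3 (adjusted p = 0.105 and 0.064) and without any single 20 μM library (replicates 1, 2 and 3, adjusted p = 0.149, 0.0767 and 0.197). ERH, an abundant gene on the opposite strand that shares 613 bases with SLC39A9, fell by more (log2 change -0.55 at 20 μM and -0.96 at 50 μM).

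SLC39A4 had 13.7, 16.2 and 15.0 CPM at 0 μM, 10.3, 9.32 and 11.5 CPM at 20 μM, and 9.75, 12.6 and 6.11 CPM at 50 μM. The third 50 μM library was the lowest of all 12 and the spread at that dose was the widest of any member, with a coefficient of variation of 34.1%. The log2 change was -0.52 ± 0.17 SE at 20 μM (adjusted p = 0.0172) and -0.52 ± 0.17 at 50 μM (adjusted p = 0.0148). Without the third 50 μM library the second value was -0.20 (adjusted p = 0.16), and without untreated replicate 2 it was -0.45 (adjusted p = 0.0579). The call at 20 μM was lost without untreated replicate 2 (adjusted p = 0.0682) and without 20 μM replicate 1 or 2 (adjusted p = 0.0644 and 0.0917).

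SLC39A7 lets zinc out of the endoplasmic reticulum. It had 107 to 121 CPM at 0 μM, 92.9 to 97.4 CPM at 20 μM and 85.9 to 94.2 CPM at 50 μM, so both doses lay under the untreated range. Its log2 change was -0.25 ± 0.07 SE at 20 μM (adjusted p = 0.00517) and -0.21 ± 0.07 at 50 μM (adjusted p = 0.0147). The 50 μM mean was 1.27-fold lower than the untreated one in CPM and 1.25-fold lower in FPKM. The 50 μM call was lost without untreated replicate 2 (adjusted p = 0.0899) and without 50 μM replicate 1, 2 or 3 (adjusted p = 0.145, 0.216 and 0.0802). RXRB, which shares 244 bases with SLC39A7 on the opposite strand, averaged 1444 counts per library. Its log2 change was -0.02 at 20 μM and 0.15 at 50 μM (adjusted p = 0.857 and 0.0899). SLC39A8 brings zinc and manganese into cells and is a known target of NF-κB in monocytes. It had 36.4 to 39.9 CPM at 0 μM, 44.3 to 47.0 CPM at 20 μM and 37.9 to 48.6 CPM at 50 μM, and the 50 μM range overlapped the untreated one. Its log2 change was 0.27 ± 0.10 SE at 20 μM (adjusted p = 0.0289) and 0.29 ± 0.10 at 50 μM (adjusted p = 0.0174). The first of these was lost without untreated replicate 2 or 3 (adjusted p = 0.0921 and 0.0705) and the second without untreated replicate 2 (adjusted p = 0.0623). The SLC39A8 mean at 50 μM was 1.10-fold the untreated one in CPM and 1.11-fold in FPKM.

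**Figure D3:**
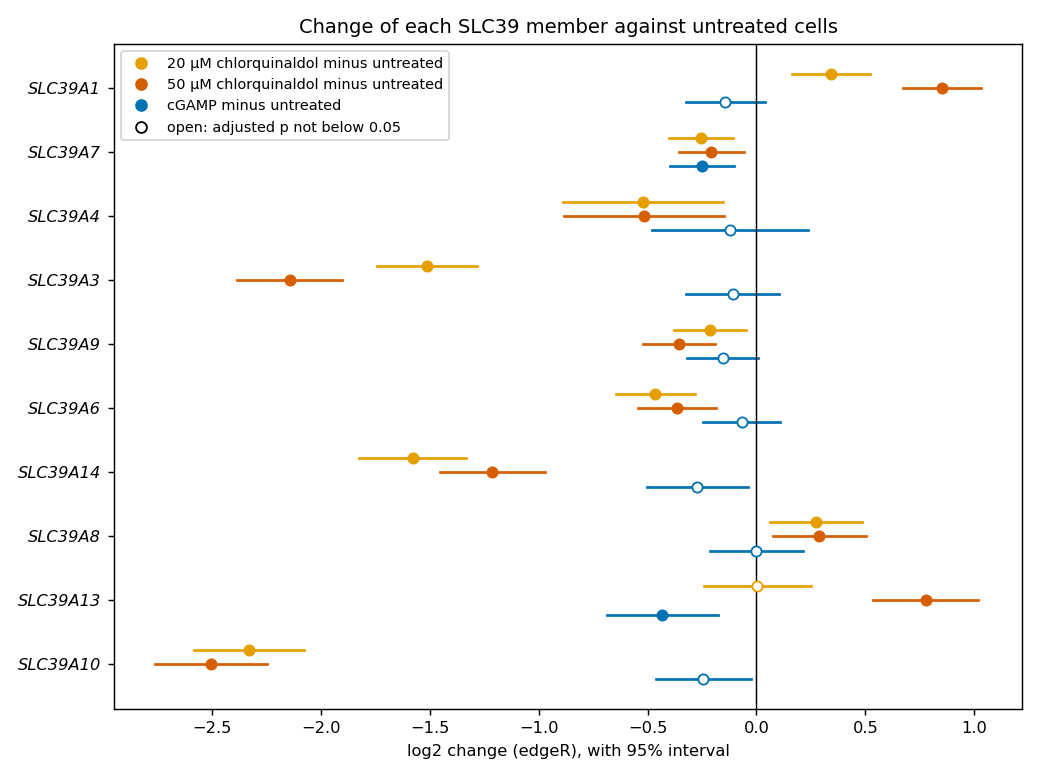
Log2 change of each SLC39 member with its 95% interval, from edgeR, for chlorquinaldol at 20 and 50 μM and cGAMP, each minus untreated cells; open points had an adjusted p not below 0.05. SLC39A3, SLC39A10 and SLC39A14 lie below -1 at both doses, and the lowest point with cGAMP is SLC39A13 at -0.43.

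Set at 50 μM against 20 μM, 4 of 10 members passed, 3 higher and 1 lower, where 38.1% of tested genes passed, 19.1% higher and 19% lower. This even split depends on the scaling: 3168 genes were higher and 3159 lower with TMM, 2722 and 3787 with upper-quartile factors, and 1839 and 3682 with limma on log2(FPKM + 1). The median of the members was a log2 change of 0.03, against -0.018 over all tested genes. At 2-fold or more 0 members passed, where 7.9% of tested genes did, and the ranges of 5 members did not overlap, which held for 47.3% of tested genes. SLC39A13 was higher at 50 μM by a log2 change of 0.77 ± 0.11 SE (adjusted p = 4.79e-05), and SLC39A1 by 0.51 ± 0.08 (adjusted p = 0.000148). SLC39A3 fell further at 50 μM, by 0.63 ± 0.12 on the log2 scale (adjusted p = 0.000561). SLC39A14 was higher at 50 μM than at 20 μM (log2 change 0.37 ± 0.12, adjusted p = 0.022). Its ranges overlapped, and the call was lost without 50 μM replicate 3 (adjusted p = 0.0932) and without 20 μM replicate 1 or 2 (adjusted p = 0.0687 and 0.0706). For SLC39A10 the log2 change was -0.17 with a 95% interval of -0.47 to 0.13 (adjusted p = 0.371), although its ranges did not overlap. The intervals of SLC39A6, SLC39A7, SLC39A8 and SLC39A9 all lay within -0.31 and 0.28, and that of SLC39A4 spanned -0.37 to 0.38.

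With cGAMP, 2 of 10 members passed against untreated cells, both lower, where 23.3% of tested genes passed, 11.6% higher and 11.8% lower. The median log2 change of the members was -0.15, against -0.053 over all tested genes. At 2-fold or more 0 members passed, where 4.34% of tested genes did, and the ranges of 7 members did not overlap, which held for 46.5% of tested genes. SLC39A13 had 10.4, 9.17 and 11.4 CPM with cGAMP, against 14.8, 14.8 and 14.0 CPM in untreated cells. It fell 1.35-fold (log2 change -0.43 ± 0.12 SE, adjusted p = 0.0146). SLC39A7 had 90.9, 95.3 and 88.7 CPM with cGAMP, against 112, 121 and 107 CPM in untreated cells, and fell 1.19-fold (-0.25 ± 0.07, adjusted p = 0.0151). Neither pair of ranges overlapped. The SLC39A13 call was lost without untreated replicate 2 (adjusted p = 0.0528), cGAMP replicate 1 (adjusted p = 0.0542) or cGAMP replicate 2 (adjusted p = 0.147). The SLC39A7 call was lost without untreated replicate 2 (adjusted p = 0.0993) or without cGAMP replicate 1, 2 or 3 (adjusted p = 0.0618, 0.0749 and 0.0528).

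The members that changed most with chlorquinaldol did not pass with cGAMP. SLC39A10 had 17.4, 15.2 and 13.9 CPM with cGAMP, under the untreated range of 18.2 to 20.2 CPM (log2 change -0.24 ± 0.10 SE, adjusted p = 0.0978). SLC39A14 had 51.8, 50.8 and 49.2 CPM with cGAMP, against 55.2 to 71.9 CPM in untreated cells (-0.27 ± 0.11, adjusted p = 0.084). It passed without untreated replicate 3 (adjusted p = 0.0463). SLC39A3 had 28.4, 31.1 and 27.4 CPM with cGAMP, a range that touched the untreated one of 31.0 to 33.6 CPM (-0.11 ± 0.10, adjusted p = 0.466). SLC39A8 had 33.6 to 38.0 CPM with cGAMP and 36.4 to 39.9 CPM in untreated cells, with a 95% interval of the log2 change from -0.21 to 0.21 (adjusted p = 0.995).

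Chlorquinaldol was also set against cGAMP. At 20 μM 7 of 10 members passed, 3 higher and 4 lower, where 55.6% of tested genes passed, 27.6% higher and 28% lower. At 50 μM 8 passed, 3 higher and 5 lower, where 66.7% of tested genes passed, 32% higher and 34.7% lower. At 2-fold or more 3 members passed at each dose, beside 17.2% of tested genes at 20 μM and 27.2% at 50 μM. The ranges of 8 members at each dose did not overlap those of cGAMP, beside 61.5% and 69.5% of tested genes. SLC39A10 was 4.25-fold lower at 20 μM and 4.79-fold lower at 50 μM than with cGAMP (adjusted p = 2.34e-10 and 5.33e-11). SLC39A3 was 2.64-fold and 4.10-fold lower (adjusted p = 9.20e-09 and 7.67e-11), and SLC39A14 was 2.48-fold and 1.92-fold lower (adjusted p = 5.27e-08 and 1.19e-06). SLC39A13 was higher by 0.44 ± 0.12 SE at 20 μM and 1.21 ± 0.12 at 50 μM on the log2 scale (adjusted p = 0.00523 and 7.46e-08). SLC39A1 was higher by 0.48 ± 0.09 and 1.00 ± 0.09 (adjusted p = 0.000121 and 1.68e-08). SLC39A6 was lower by a log2 change of -0.40 and -0.30 (adjusted p = 0.000813 and 0.00561), the second lost without 50 μM replicate 2 (adjusted p = 0.0501). SLC39A8 passed at both doses and SLC39A9 at 50 μM, each with a log2 change under 0.3 in size and with calls lost without single libraries. For SLC39A8 at 20 μM these were cGAMP replicates 2 and 3 and 20 μM replicates 2 and 3 (adjusted p = 0.0668, 0.103, 0.088 and 0.072). At 50 μM, for SLC39A8, they were cGAMP replicate 3 and 50 μM replicate 1 (adjusted p = 0.072 and 0.103). For SLC39A9 they were cGAMP replicates 1 and 2 and 50 μM replicates 1 and 2 (adjusted p = 0.0964, 0.0654, 0.267 and 0.105). SLC39A4 passed at 50 μM without 50 μM replicate 2 (adjusted p = 0.00521). Other settings also changed these calls. SLC39A9 at 50 μM missed with RLE factors (adjusted p = 0.0637), no filter (0.124), only the groups compared (0.0807) and DESeq2 (0.054), and SLC39A8 at 50 μM missed in the limma fits of FPKM (0.105 to 0.156). SLC39A4 passed with no filter at 20 and 50 μM (adjusted p = 0.0107 and 0.0139), with only the groups compared at 20 μM (0.0064), and in the filtered limma fits of FPKM at 50 μM (0.0166 and 0.0161). The comparisons with cGAMP and with untreated cells share the chlorquinaldol libraries.

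The summed FPKM of the 10 members was 263 to 279 at 0 μM, 229 to 235 at 20 μM and 242 to 257 at 50 μM. With cGAMP it was 229 to 231. All 3 treatments thus lay below the untreated range. On log2(FPKM + 1) the median of all tested genes at 50 μM was itself lower by a log2 change of -0.107 against untreated cells, and it was -0.0095 at 20 μM and -0.066 with cGAMP. The make-up of the sum differed: SLC39A1 made up 25.7% ± 0.6 of it at 0 μM, 37.2% ± 2.8 at 20 μM and 44.6% ± 0.7 at 50 μM, and 26.4% ± 1.4 with cGAMP (SD, n = 3 each). The share of SLC39A3 was 9.99% ± 0.42 at 0 μM, 4.43% ± 0.81 at 20 μM and 2.58% ± 0.23 at 50 μM (SD, n = 3 each). The share of SLC39A14 was 5.38% ± 0.64 at 0 μM, 2.11% ± 0.37 at 20 μM and 2.49% ± 0.44 at 50 μM (SD, n = 3 each).

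**Figure D4:**
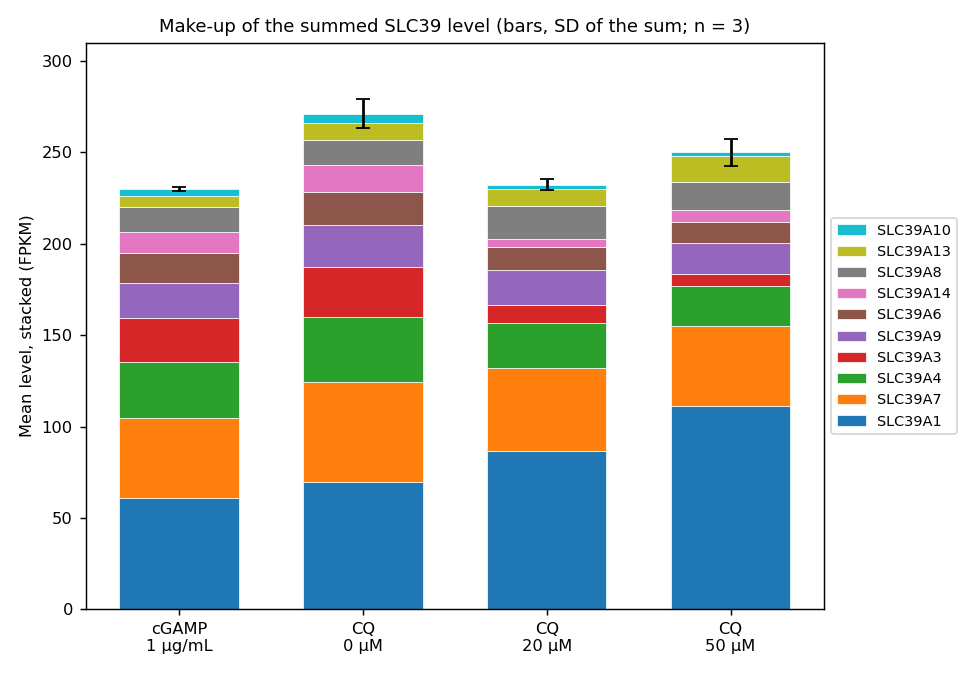
Summed FPKM of the 10 SLC39 members by treatment (CQ, chlorquinaldol, with 0 μM the untreated cells), as group means stacked by member; whiskers are the SD of the sum (n = 3). The sum was 230 FPKM with cGAMP, and 271, 232 and 250 FPKM at 0, 20 and 50 μM, while the SLC39A1 layer grew with dose.

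Across the 12 libraries the log2 CPM of the 45 member pairs correlated between -0.94, for SLC39A1 with SLC39A3, and 0.97, for SLC39A3 with SLC39A10. The median was 0.35 and 20 pairs were below 0. These points share 4 groups and 1 scaling, so the values describe the group pattern. The genes most like SLC39A10 in this measure were CTSG (cathepsin G, a protease of myeloid granules; r = 0.992), CLSTN2 (0.990), CS (citrate synthase; 0.988), CEACAM6 (an adhesion molecule of granulocytes; 0.987) and CLPB (a mitochondrial disaggregase; 0.987), each over 12 libraries. Most like SLC39A1 were DNAJB2 (a co-chaperone of HSP70; r = 0.994), FMNL1 (a formin; 0.993), FERMT3 (an integrin activator; 0.992), RELT (a receptor of the TNF receptor family; 0.992) and BCKDK (a kinase of branched-chain amino acid breakdown; 0.992), over the same 12 libraries.

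Of the other SLC39 genes, SLC39A11 was the 1 of 4 with enough counts to test. It encodes a more distant importer and had 40.5, 39.0 and 34.7 CPM at 0 μM, 14.6, 15.7 and 18.7 CPM at 20 μM, and 8.91, 9.18 and 8.38 CPM at 50 μM. SLC39A11 fell 2.31-fold at 20 μM (log2 change -1.21 ± 0.10 SE, adjusted p = 2.73e-08) and 3.90-fold at 50 μM (-1.96 ± 0.10, adjusted p = 4.31e-11), and was lower at 50 μM than at 20 μM (-0.76 ± 0.11, adjusted p = 3.80e-05). With cGAMP its log2 change was 0.06 ± 0.09 (adjusted p = 0.714). SLC39A2, SLC39A5 and SLC39A12 had 0 to 2 counts per library and were not tested.

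Genes of zinc export and storage were listed beside the importers. Of 10 SLC30 exporters 8 were tested. Against untreated cells 5 rose and 0 fell at either dose. Among all tested genes 27.1% were higher and 28% lower at 20 μM, and 32.2% and 34.7% at 50 μM. The median log2 change of the exporters was 1.31 at 20 μM and 1.56 at 50 μM, beside -0.0016 and -0.034 over all tested genes. SLC30A1, the surface exporter, averaged 310 ± 33.2 CPM at 50 μM, 322 ± 8.82 CPM at 20 μM and 42.7 ± 2.83 CPM in untreated cells (SD, n = 3 each). SLC30A6, an exporter of the Golgi, rose 1.32-fold at 50 μM and 1.38-fold at 20 μM. SLC30A2, SLC30A3 and SLC30A4, which load zinc into vesicles, were each under 0.4 CPM on average in untreated cells and reached means of 6.73, 2.13 and 6.20 CPM at 50 μM. SLC30A7 was the exporter that passed with cGAMP (log2 change 0.41 ± 0.08 SE, adjusted p = 0.00126), where 23.3% of tested genes passed.

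Metallothioneins and MTF1 formed a list of 12, of which 10 were tested. Of these 9 rose at 20 μM and 10 at 50 μM, with a median log2 change of 6.67 and 6.22. Among all tested genes 27.1% were higher at 20 μM and 32.2% at 50 μM, and 23.3% passed with cGAMP. MT2A averaged 2610 ± 853 CPM at 50 μM, 3460 ± 462 CPM at 20 μM, 102 ± 15.9 CPM with cGAMP and 33.7 ± 3.97 CPM in untreated cells (SD, n = 3 each), and it was the 1 of the list that passed with cGAMP. MT1E, MT1F, MT1G, MT1M and MT1X averaged 224 to 1000 CPM at 50 μM and 316 to 1451 CPM at 20 μM, with 0.106 to 37.5 CPM in untreated cells. MT1A, MT1B and MT1H also passed at both doses, with untreated means of at most 0.247 CPM. The MT1 genes are near-identical copies, so reads may be shared among them. MTF1 itself averaged 132 ± 13.8 CPM at 50 μM, 70.9 ± 3.97 CPM at 20 μM and 68.6 ± 3.47 CPM in untreated cells (SD, n = 3 each). It rose at 50 μM (log2 change 1.09 ± 0.09 SE, adjusted p = 5.70e-09), and at 20 μM its log2 change was 0.06 ± 0.09 (adjusted p = 0.608).

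SLC39A8 and SLC39A14 also carry manganese or iron, so 8 iron and manganese genes were listed beside them, of which 6 were tested. At either dose 4 rose and 2 fell, and 0 passed with cGAMP. Among all tested genes 27.1% were higher and 28% lower at 20 μM, 32.2% and 34.7% at 50 μM, and 23.3% passed with cGAMP. The transferrin receptor gene TFRC rose 5.08-fold at 50 μM and 4.83-fold at 20 μM, and the ferritin genes FTH1 and FTL rose 23.0-fold and 2.20-fold at 50 μM. SLC11A2, a ferrous iron importer, rose 2.86-fold at 50 μM and 1.54-fold at 20 μM. SLC40A1, the iron exporter ferroportin, fell by 1.11 on the log2 scale at 50 μM and by 0.90 at 20 μM. STEAP3, a ferrireductase of endosomes, fell by 2.68 at 50 μM and by 1.63 at 20 μM on the same scale. SLC39A14 and STEAP3 thus fell, while TFRC and SLC11A2 rose, in the same libraries.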

How the data were processed

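Gene tables of 12 THP-1 RNA-seq libraries were used, in 4 groups taken from the labels. Per the submitters' processing notes, the authors used RSEM with GRCh38 for both the estimated count and the FPKM table, and the notes also name DESeq2 1.26.0. RSEM version, annotation release and read strand are not given in the sources used here. Per the labels, poly(A) RNA was selected with oligo(dT) and sequenced on BGI's DNBSEQ.

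Estimated counts, of which 42.307% of those above 0 were not whole, were rounded. The 326 entries with no gene name, 0.182% to 0.29% of counts, were left out. Genes were kept by filterByExpr at a minimum count of 10, TMM factors were applied, and edgeR 4.0.16 in R 4.3.3 fitted 1 quasi-likelihood model of 4 groups, with Benjamini-Hochberg adjustment over 16628 genes. The SE is the log2 change over the square root of F, and 95% intervals use 8 residual and 8.99 prior degrees of freedom. CPM are counts scaled to the summed counts of the named genes, without TMM. TMM factors were 0.905 to 0.964 at 50 μM, 1.00 to 1.06 at 20 μM, 0.973 to 1.02 with cGAMP and 1.02 to 1.06 in untreated cells. The members' edgeR changes at 50 μM against the other groups thus lay above the changes of their CPM means. Within groups, libraries correlated at 0.986 to 0.991 (log2 CPM, prior count 2), and at 0.904 to 0.976 between groups. The implied effective length is the count over the product of FPKM and summed counts, in bases. Positions and overlaps come from GENCODE 29, and promoters from RefSeq. The script was tested on simulated counts. Proteins were not analysed here, and 1 gene of the marker lists is not reported here.

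The members, gene lists and tests were chosen with earlier results of these data known. Named are the members and the called genes of the lists. Also named are the 5 genes most correlated with the member that rose most and the one that fell most at 50 μM in edgeR. Alternatives were RLE and upper-quartile factors, other filters and thresholds, only the groups compared, the replicate block, each replicate left out, DESeq2 1.42.0, and limma 3.58.1 on log2(FPKM + 1) or log2(FPKM + 0.1).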

Additional observations from a re-analysis of the deposited data

How the results depend on the processing

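Of the 160 values per comparison (10 members under 16 settings), 0 changed direction at 50 μM against untreated cells and 1 at 20 μM. SLC39A1, SLC39A3, SLC39A6, SLC39A10 and SLC39A14 kept their calls in every setting at both doses, as did SLC39A9 and SLC39A13 at 50 μM. On log2(FPKM + 1) the SLC39A10 change was -0.72 at 20 μM and -1.07 at 50 μM. The median of all tested genes at 50 μM against untreated cells was -0.107 on that scale and -0.16 with 0.1 added. Requiring 2-fold left 3 members at 20 μM, 3 at 50 μM and 0 with cGAMP, each against untreated cells, 0 at 50 against 20 μM, and 3 at either dose against cGAMP. The cGAMP count was 1 with no filter, where 2350 of all genes were higher and 1408 lower, and 0 at an adjusted p below 0.01. Leaving out 1 library gave 7 to 8 members at 20 μM, 7 to 10 at 50 μM and 0 to 3 with cGAMP against untreated cells, 3 to 4 at 50 against 20 μM, and, of the members set against cGAMP, 6 to 7 for 20 μM and 6 to 8 for 50 μM. Calls over all genes also fell, for example without untreated replicate 2. At 20 μM 3970 genes were then higher and 4191 lower, beside 4501 and 4654 with all libraries. At 50 μM these were 5070 and 5418, beside 5352 and 5771, and with cGAMP 1515 and 1161, beside 1921 and 1954. Where a call changed without 1 library, the value stands beside the result. Against untreated cells, other settings ended the calls of SLC39A7 at 20 μM (no filter, adjusted p = 0.0778) and 50 μM (RLE 0.0531, no filter 0.241), SLC39A9 at 20 μM (no filter 0.202), SLC39A4 at 20 μM (unfiltered FPKM 0.0699), SLC39A8 at 50 μM (FPKM 0.233 to 0.322) and SLC39A7 with cGAMP (no filter 0.149). SLC39A14 with cGAMP passed with upper-quartile factors (0.0449) and only the groups compared (0.0304). At 50 against 20 μM SLC39A14 missed with only the groups compared (0.0516) and in FPKM (0.101 to 0.22), where SLC39A10 passed (0.0395 and 0.0296, filtered). These are adjusted p-values from edgeR or, for FPKM, limma.

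Direction changed where the value had not passed, and the cause was not tested. At 50 against 20 μM, upper-quartile factors gave log2 changes of -0.043 for SLC39A4, -0.00051 for SLC39A7 and -0.033 for SLC39A8. On log2(FPKM + 1), filtered or not, SLC39A4 was -0.19, SLC39A6 -0.062, SLC39A7 -0.053 and SLC39A8 -0.17, and with 0.1 added -0.20, -0.066, -0.055 and -0.18. For SLC39A8 with cGAMP against untreated cells the value was 0.015 with RLE, 0.040 with no filter, 0.041 with only the groups compared and 0.016 with DESeq2. For SLC39A7 at 20 μM against cGAMP it was 0.057 with upper-quartile factors, 0.018 at 5 CPM, 0.049 on log2(FPKM + 1), filtered or not, and 0.050 with 0.1 added; SLC39A9 gave 0.0042 with upper-quartile factors. SLC39A7 at 50 μM against cGAMP gave -0.0049 on log2(FPKM + 1), filtered or not, and -0.0050 with 0.1 added. Over single libraries left out, the range was -0.012 to 0.068 for SLC39A13 at 20 μM against untreated cells, -0.22 to 0.27 for SLC39A4 and -0.12 to 0.11 for SLC39A8 at 50 against 20 μM. With cGAMP against untreated cells it was -0.14 to 0.0095 for SLC39A6 and -0.023 to 0.038 for SLC39A8, and -0.029 to 0.015 for SLC39A7 at 20 μM against cGAMP.

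Replicate numbers are shared across groups by label. Deviations of the 18 same-numbered pairs correlated at -0.113 to 0.067, 0 of them over 0.1. Those of the 36 pairs with different numbers correlated at -0.091 to 0.129. Libraries of the same number were thus no more alike here, which cannot show whether they were paired by culture or day. The replicate block left 9 members called at 20 μM, 10 at 50 μM and 2 with cGAMP against untreated cells, 4 at 50 against 20 μM, and 7 and 8 against cGAMP, the counts without it. Over all genes the block gave 4391 higher and 4573 lower at 20 μM, 5281 and 5697 at 50 μM, and 1842 and 1777 with cGAMP. At 50 against 20 μM it gave 3036 and 3059, and against cGAMP 4469 and 4615 for 20 μM and 5236 and 5712 for 50 μM. Under the block SLC39A4 at 50 against 20 μM was -0.014. Low counts limit the precision for SLC39A10, at 53 to 75 counts per chlorquinaldol library.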
